A study of Mus musculus with 4 samples.

Results

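The 36 genes described here encode proteins of the extracellular matrix and proteins that mark fibroblasts, pericytes or smooth muscle, and they were followed in RNA sequencing libraries of sorted lung group 2 innate lymphoid cells (ILC2s). Members were the rows of the deposited tables whose gene symbol equalled a listed name, 36 of 22558 genes, from a list drawn up with earlier results of these data known. The libraries were 2 of wild-type (WT) C57BL/6 mice and 2 of animals labelled ICAM-1 KO, which carry a constitutive mutation in the gene of the adhesion molecule ICAM-1 (strain B6.129S4-Icam1tm1Jcgr/J in the study's methods). All mice were 6 weeks old and had received 3 intranasal doses of 0.5 µg recombinant mouse IL-33, an epithelial cytokine that activates ILC2s, so that no library came from untreated lungs. On day 4 the lung cells were sorted as CD45+ Lin- ST2+ CD127+ to over 95% purity, and each library was a pool of 4 mice, which hides the spread between animals.

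The extracellular matrix is the protein scaffold around cells. Fibroblasts, pericytes and smooth muscle cells secrete fibrillar collagens and elastic fibres, while basement membranes, thin sheets of type IV collagen, laminins and nidogen, underlie epithelium and surround blood vessels and are made in part by endothelium. ILC2s are lymphocytes that lie among such cells in the lung, and none of these matrix-producing cell types carries CD45, which the sort required.

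Icam1, the gene that the knockout targets (chromosome 9, 21015985 to 21028817), had 2579 and 2630 counts in WT replicates 1 and 2 and 2812 and 3453 in ICAM-1 KO replicates 1 and 2. Its RNA was thus not lower in the latter (log2 fold change 0.33, SE 0.108, edgeR adjusted p = 0.0745), and they are named by their label alone, as the labelled-KO libraries. From flow cytometry of lung ILC2s the paper reports that ICAM-1 KO mice lack the protein, which RNA libraries do not measure. Totals ran from 24796148 to 28782471 estimated counts per library. ILC2 marker genes summed to 10200 and 10608 CPM (counts scaled to each library's total) in WT and to 9105 and 9193 in the labelled-KO libraries. Of 17 such genes tested 1, Il13 (named after its value was seen), was called lower and 0 higher, and by an adjusted p alone 5 were lower and 2 higher. Of all 11711 genes tested 63 were called lower and 578 higher, and by an adjusted p alone 582 were lower and 1030 higher. Below, values of each label are given in the order of replicates 1 and 2, and a gene is called where edgeR's quasi-likelihood test gave a Benjamini-Hochberg adjusted p under 0.05 over all 11711 genes tested and a change of at least 2-fold.

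The members were a small part of each library. Together they took 0.0198% and 0.0315% of all counts in WT and 0.0398% and 0.0467% in the labelled-KO libraries. Per kilobase of transcript, the highest mean levels over the libraries were those of Gsn at 28.3 CPM per kb, Mgp at 9.65, Lamc1 at 7.54, Sparc at 6.01 and Col4a1 at 3.76. No count at all was found for 8 and 4 members in WT and for 2 and 1 members in the labelled-KO libraries, where a count of 0 still allows up to 0.104 to 0.121 CPM (3 counts, counting error only). In such bulk samples, fewer cells of a type and less RNA per cell cannot be told apart.

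**Figure D1:**
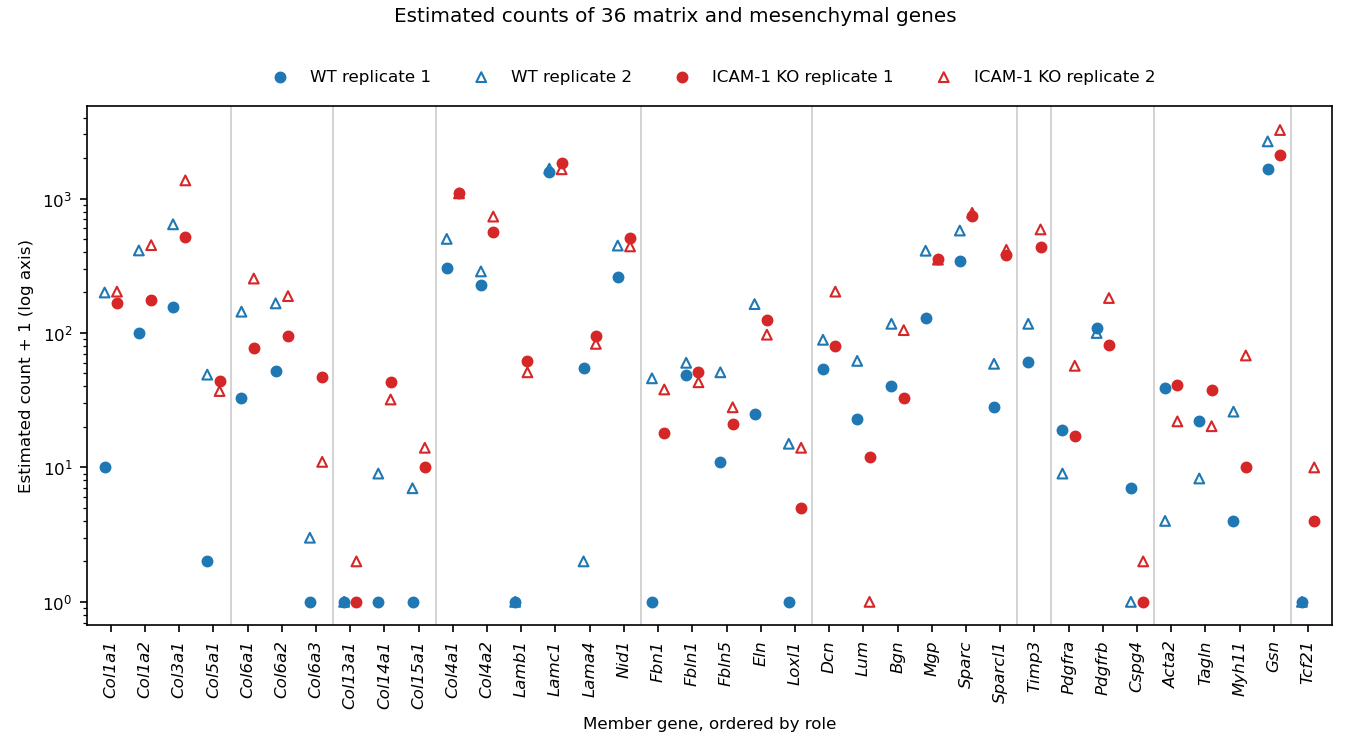
Estimated count plus 1 (log axis) of each of the 36 members in the 4 libraries, with grey lines between groups of genes with a common role. WT replicate 1 (filled blue circles) lies lowest for most collagens, whereas Col4a1, Col4a2, Sparcl1 and Timp3 have both labelled-KO libraries (red) above both WT libraries (blue).

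Of the 36 members, 17 passed the filter on low values, with a normalized count that averaged 1 or more and summed to 10 or more over the libraries. Sparcl1 and Dcn were the 2 tested members whose WT mean was under 2.5, the level that reaches this sum when all libraries are alike, so these entered through the labelled-KO libraries. Just outside the filter lay Bgn with a summed normalized count of 9.52, and just inside it Eln with 13.4. Among the tested members 4 were called higher in the labelled-KO libraries, Col4a1, Col4a2, Sparcl1 and Timp3, against 4.94% of all genes tested. None was called lower by edgeR, DESeq2 or limma, and 6 of the 17 had an unadjusted edgeR p under 0.05, all of them higher, against 30.2% of all genes tested in either direction. Both labelled-KO libraries lay above both WT libraries for 5 tested members, the 4 called and Sparc, against 28.3% of all genes tested, and the labels overlapped for the other 12. The median log2 fold change was 0.80 over the tested members and 0.46 without the 4 called, against 0.01 over all genes tested.

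**Figure D2:**
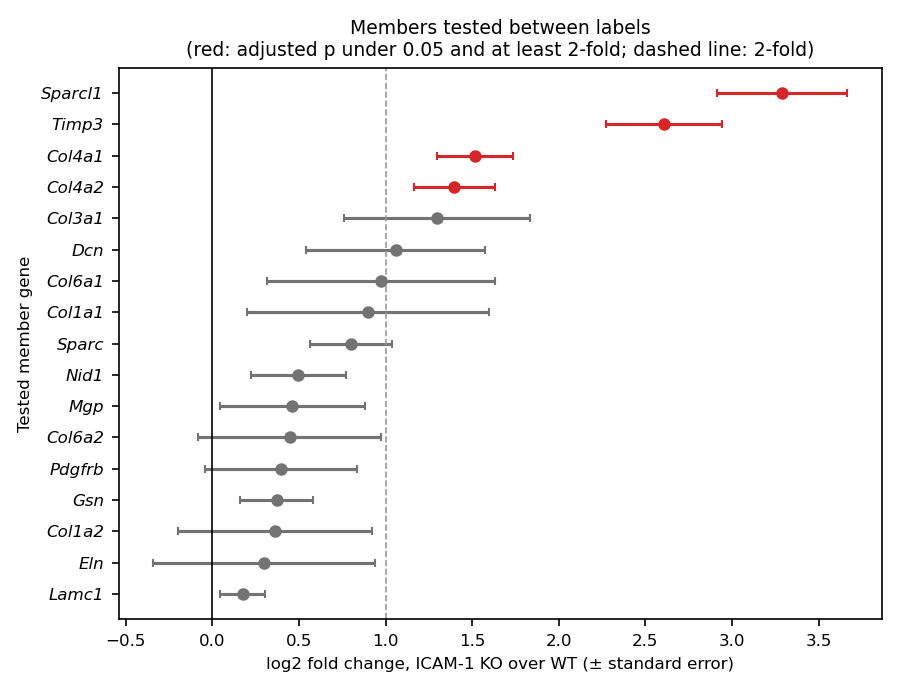
Log2 fold change of each tested member between the labelled-KO and WT libraries, with its standard error (2 libraries per label). Sparcl1 at 3.29, Timp3 at 2.61, Col4a1 at 1.51 and Col4a2 at 1.40 (red) passed the adjusted p and the 2-fold limit (dashed line), and Col3a1 and Dcn lay beyond 2-fold without passing the adjusted p.

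The basement membrane genes held the network-forming collagen chains among the called members. Col4a1 and Col4a2 encode the chains that wind together into the common type IV collagen of all basement membranes. Col4a1 (chromosome 8, 11198423 to 11312826, minus strand) had normalized counts of 10.0 and 15.9 in WT and of 38.0 and 34.8 in the labelled-KO libraries. Col4a2 (chromosome 8, 11312805 to 11449287, plus strand) had 7.53 and 9.09 in WT and 19.4 and 23.4 in the labelled-KO libraries. For both genes the labels did not overlap, with a log2 fold change of 1.51 (SE 0.219, edgeR adjusted p = 0.0038) for Col4a1. Col4a2 differed by 1.40 on the log2 scale (SE 0.233, edgeR adjusted p = 0.0072), and leaving out each library in turn gave 1.24 to 1.54 for it and 1.22 to 1.89 for Col4a1.

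These collagen genes stand head to head and overlap by 22 bases at their starts, so the bases before one start lie inside the other gene. The 30 bases below, upstream of the RefSeq start of Col4a2 and within the first transcribed part of Col4a1, are shown because both genes were called and this stretch lies just before the overlap of their starts. It is at chr8:11312757-11312786 of GRCm38.p6, plus strand, with a GC box (GGGCGG, here on the other strand) and a CCAAT box (CCAAT) in capitals.
Col4a2 upstream: CCGCCCgaggagctccCCAATttgttggcg
The GC box begins 48 bases and the CCAAT box 32 bases before the Col4a2 start. The RefSeq promoter table, in windows of 250 bases before a start and on both strands, held CCAAT in 33.8%, GGGCGG in 32.7% and TATAA in 22.8% of 32851 windows. Among the 23 members with an entry (28 windows), CCAAT was found for 7, GGGCGG for 13 and TATAA for 4. Such matches describe letters in a window and are not evidence of binding.

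Of the laminin and nidogen genes Lamc1 and Nid1 were tested and neither was called, and Lamb1 and Lama4 were below the filter. Lamb1 and Lama4 encode the beta 1 and alpha 4 laminin chains, which join the gamma 1 chain from Lamc1 in the laminin of vascular basement membranes. Lamb1 had 0 and 0 counts in WT and 61 and 50 in the labelled-KO libraries, at least 20.0-fold higher against a floor of 3 counts per WT library. It missed the filter with a summed normalized count of 3.84, and was called under edgeR's own filter (filterByExpr, adjusted p = 0.0255) but not with no filter (adjusted p = 0.0675). With 0 counts in both WT libraries Lamb1 passed edgeR's own filter through the labelled-KO libraries alone, so that call adds no support. Lama4 had 54 and 1 counts in WT and 94 and 82 in the labelled-KO libraries, with WT replicate 2 far below all other libraries, and it was not tested.

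Lamc1 was far more abundant, with normalized counts of 52.0 and 52.8 in WT and 63.6 and 52.6 in the labelled-KO libraries. Its labels overlapped, with a log2 fold change of 0.17 (SE 0.129, edgeR adjusted p = 0.403), and Gm8818 on the other strand, with 572 to 813 counts, could share its reads. Nid1, which encodes nidogen-1, the linker between laminin and type IV collagen, had 8.65 and 14.1 in WT and 17.7 and 14.0 in the labelled-KO libraries. It overlapped between labels as well (log2 fold change 0.50, SE 0.28, edgeR adjusted p = 0.264).

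Sparcl1 and Timp3 showed the highest fold changes among the tested members. Sparcl1 (chromosome 5, 104079111 to 104113733) encodes hevin, a matricellular protein related to the collagen-binding glycoprotein SPARC. It had 27 and 58 counts in WT and 381 and 414 in the labelled-KO libraries, or normalized counts of 0.924 and 1.87 against 13.3 and 13.2. The libraries of the latter label were nearly equal and far above WT (log2 fold change 3.29, SE 0.376, edgeR adjusted p = 0.0015). Without WT replicate 2 the value was 3.91 and over the other omissions it was no lower than 2.87. Sparc itself had normalized counts of 11.4 and 18.3 in WT and 25.9 and 24.9 in the labelled-KO libraries. Its labels did not overlap, yet it was not called (log2 fold change 0.80, SE 0.235, edgeR adjusted p = 0.0536), except without WT replicate 2 (1.19, adjusted p = 0.0301).

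Timp3 encodes a tissue inhibitor of metalloproteinases that stays bound to the matrix. It lies on chromosome 10 from 86300372 to 86349506, inside Syn3 on the other strand, which had at most 4 counts in any library. Timp3 had 60 and 116 counts in WT and 438 and 588 in the labelled-KO libraries, or normalized counts of 2.01 and 3.71 against 15.2 and 18.8. Both labelled-KO libraries were well above both WT libraries (log2 fold change 2.61, SE 0.333, edgeR adjusted p = 0.0023). Its upstream sequence is given because it was the called member with an entry whose window is free of another gene's exons, at chr10:86300162-86300396 of GRCm38.p6, plus strand, with TATAA in capitals.
Timp3 upstream: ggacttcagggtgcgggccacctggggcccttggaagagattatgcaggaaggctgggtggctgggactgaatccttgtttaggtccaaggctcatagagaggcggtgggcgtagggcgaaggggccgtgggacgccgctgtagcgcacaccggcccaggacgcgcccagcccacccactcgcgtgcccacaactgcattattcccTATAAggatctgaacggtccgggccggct
Its last 25 bases lie in the first exon of Timp3 as GENCODE places it. The window ends 16 bases before the RefSeq start and its TATAA begins 44 bases before it, while a GC box begins at 15 bases, past the printed end. Of its 250 bases 65.6% are G or C, against a median of 52.4% over all windows.

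The interstitial collagens showed a different pattern, in which WT replicate 1 was low and the labels overlapped. Col1a1 and Col1a2 encode the chains of type I collagen and Col3a1 that of type III, the main fibrils of lung interstitium. Col1a1 had 9 and 199 counts in WT and 167 and 202 in the labelled-KO libraries, so that WT replicate 2 matched the other label and WT replicate 1 alone was low. Its log2 fold change of 0.90 (SE 0.698, edgeR adjusted p = 0.428) became -0.01 without WT replicate 1 and 4.37 without WT replicate 2 (adjusted p = 0.0196). Col1a2 had 99 and 410 counts in WT and 176 and 449 in the labelled-KO libraries, with replicate 2 above replicate 1 in both labels. Its log2 fold change was 0.36 (SE 0.561, edgeR adjusted p = 0.714), and it turned to -0.31 without WT replicate 1 and to -0.41 without ICAM-1 KO replicate 2.

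Col3a1 was the most abundant of these 3 genes per length and the one nearest to a call. It had 154 and 642 counts in WT and 514 and 1363 in the labelled-KO libraries, which interleave. The log2 fold change of 1.30 (SE 0.537, unadjusted p = 0.039, edgeR adjusted p = 0.142) was called without WT replicate 2 (2.63, adjusted p = 0.0482), without ICAM-1 KO replicate 1 (1.80, adjusted p = 0.0011) and with replicate numbers as a block (1.38, adjusted p = 0.0045), and without ICAM-1 KO replicate 2 it was 0.50. Its upstream sequence is shown beside that of Timp3 as a member with counts that overlapped between labels, at chr1:45311288-45311537 of GRCm38.p6, plus strand, with TATAA in capitals.
Col3a1 upstream: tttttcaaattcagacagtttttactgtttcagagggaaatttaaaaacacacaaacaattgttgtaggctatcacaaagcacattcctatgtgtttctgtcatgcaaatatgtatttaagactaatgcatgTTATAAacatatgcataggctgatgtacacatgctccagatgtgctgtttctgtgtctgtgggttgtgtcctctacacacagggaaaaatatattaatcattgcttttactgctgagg
The capitals cover TATAA on both strands, overlapping each other, 118 and 117 bases before the RefSeq start, and the window holds neither CCAAT nor GGGCGG. G and C make up 35.2% of it.

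Col5a1, a type V chain that starts collagen fibrils, had 1 and 48 counts in WT and 43 and 36 in the labelled-KO libraries and was below the filter, again with WT replicate 1 low alone. The type VI chains form beaded filaments around cells. Col6a1 had 32 and 143 counts in WT and 76 and 253 in the labelled-KO libraries (log2 fold change 0.97, SE 0.657, edgeR adjusted p = 0.356). Col6a2 had 51 and 165 in WT and 94 and 187 in the labelled-KO libraries (log2 fold change 0.45, SE 0.529, edgeR adjusted p = 0.619). Both overlapped between labels, with replicate 2 the higher library in each, and without ICAM-1 KO replicate 2 their log2 fold changes were -0.08 each, while Col6a2 was also negative, at -0.14, without WT replicate 1.

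Col6a3, the third chain of the common type VI collagen, did not follow its partners. It had 0 and 2 counts in WT and 46 and 10 in the labelled-KO libraries, a ratio of 30.0 in summed CPM with an exact 95% interval of 7.93 to 254 for counting error. The interval leaves out the spread between the labelled-KO libraries. Col6a3 was below the filter, and with no filter on low counts it was not called (edgeR adjusted p = 0.183). Of the other collagens, Col14a1, which decorates fibrils, had 0 and 8 counts in WT and 42 and 31 in the labelled-KO libraries. Col15a1, found at the edge of basement membranes, had 0 and 6 against 9 and 13. Col13a1, a membrane-spanning collagen that marks a class of lung fibroblasts, had a sole count, in ICAM-1 KO replicate 2.

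For the elastic fibre genes the labels overlapped. Eln, which encodes elastin, had 24 and 163 counts in WT and 123 and 96.1 in the labelled-KO libraries, with the highest and the lowest library both WT. Its log2 fold change was 0.30 (SE 0.641, edgeR adjusted p = 0.797) and -0.47 without WT replicate 1. Fbn1, the microfibril protein fibrillin-1, had 0 and 45 counts in WT and 17 and 37 in the labelled-KO libraries. Loxl1, an enzyme that cross-links elastin, had 0 and 14 against 4 and 13. Fbln5, which guides elastin onto microfibrils, had 10 and 50 against 20 and 27, and Fbln1, another fibulin, 48 and 59 against 50 and 42. For each of these 5 genes WT replicate 2 held the most counts, and of the 5 only Eln passed the filter.

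Of the small leucine-rich proteoglycans, which bind collagen fibrils and space them, Dcn alone passed the filter and was not called. Dcn, encoding decorin, had 53 and 88 counts in WT and 79 and 202 in the labelled-KO libraries, which overlap (log2 fold change 1.06, SE 0.515, edgeR adjusted p = 0.204). Lum, encoding lumican, had 22 and 61 in WT and 11 and 0 in the labelled-KO libraries, the one member of the 36 for which both WT libraries were the higher, and it was too low to be tested. Bgn, encoding biglycan, had 39 and 116 against 32 and 104 so that each label held a low and a high library. Mgp, an inhibitor of calcification made by smooth muscle and fibroblasts, had normalized counts of 4.26 and 13.0 in WT and 12.3 and 11.2 in the labelled-KO libraries, again with WT replicate 1 alone low. Its log2 fold change was 0.46 (SE 0.418, edgeR adjusted p = 0.50), and -0.12 without WT replicate 1.

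The receptors and cell markers among the members were low. Pdgfra and Pdgfrb encode the receptors for platelet-derived growth factors that mark fibroblasts and mural cells, the pericytes and smooth muscle cells on vessels. Pdgfra had 18 and 8 counts in WT and 16 and 56 in the labelled-KO libraries. Pdgfrb had 108 and 99 against 80 and 181, which overlap (log2 fold change 0.40, SE 0.439, edgeR adjusted p = 0.591), and without ICAM-1 KO replicate 2 it was -0.25. Cspg4, the pericyte proteoglycan NG2, had 6 and 0 counts against 0 and 1, and Tcf21, a transcription factor of lung fibroblasts, 0 and 0 against 3 and 9. These 2 and Col13a1 were the 3 members left out of the authors' normalized table. The genes left out of that table had at most 10 counts in any library.

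The contractile genes of smooth muscle were low as well and overlapped between labels for each gene. Acta2, smooth muscle actin, had 38 and 3 counts in WT and 40 and 21 in the labelled-KO libraries. Tagln, encoding transgelin, had 21.2 and 7.27 against 36.8 and 19.3, and its overlap with Pcsk7 on the other strand, with 984 to 1482 counts, leaves its value uncertain. Myh11, the smooth muscle myosin heavy chain, had 3 and 25 against 9 and 67. Gsn, which encodes the actin-severing protein gelsolin and is also made by many blood cells, had normalized counts of 55.2 and 84.3 in WT and 73.7 and 103 in the labelled-KO libraries. They overlap, with replicate 2 the higher in each label (log2 fold change 0.37, SE 0.212, edgeR adjusted p = 0.275).

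Differences between libraries of 1 label were thus a main feature of these genes. Among the 17 tested members, normalized counts were at least 2-fold higher in WT replicate 2 than in WT replicate 1 for 8 (against 2.33% of all genes tested) and the reverse held for 0. In the labelled-KO libraries, replicate 2 was at least 2-fold above replicate 1 for 5 (1.33% of all genes tested), Col1a2, Col3a1, Col6a1, Dcn and Pdgfrb. WT replicate 1 was the lowest of the libraries for 16 of the 17 (24.8% of all genes tested), Pdgfrb being the exception. The median ratio of WT replicate 2 over WT replicate 1 was 1.84 for the tested members and 1.01 for all genes tested. No batch was given in the labels for these libraries, and the source of this difference was not tested.

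**Figure D3:**
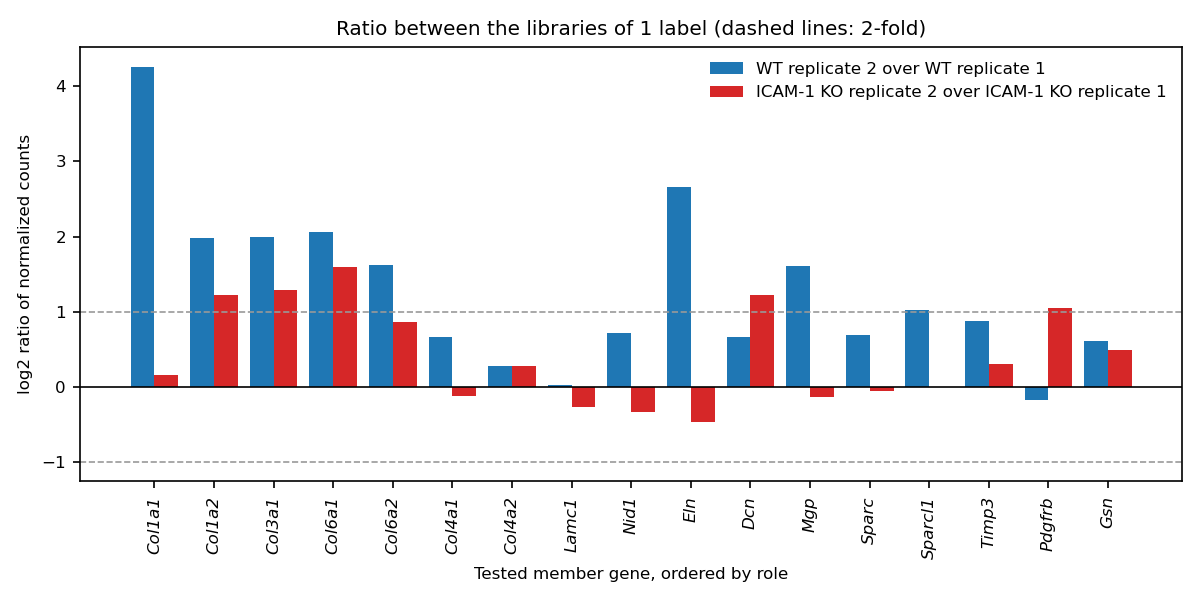
Log2 ratio of normalized counts between the 2 libraries of each label for the 17 tested members, WT in blue and ICAM-1 KO in red, with dashed lines at 2-fold. The blue bars of Col1a1, Col1a2, Col3a1, Col6a1, Col6a2, Eln and Mgp pass 2-fold by a wide margin and that of Sparcl1 barely (2.02), while those of Col4a1, Col4a2 and Timp3 stay below it.

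Summed over groups, the 7 fibrillar and type VI collagen genes gave 12.7 and 55.9 CPM in WT and 45.0 and 91.0 CPM in the labelled-KO libraries, which overlap. The 5 elastic fibre genes gave 3.01 and 11.5 CPM in WT and 8.63 and 7.83 CPM in the labelled-KO libraries. The 4 called members gave 22.6 and 33.4 CPM in WT against 99.6 and 103 CPM. They were picked by this difference in the same libraries, so the gap in their sum adds no support.

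Other matrix genes were read from 6 lists holding 93 genes of the count table, none of them a member. Of these 46 were tested, and 10 were called higher in the labelled-KO libraries (4.94% of all genes tested were) and 0 lower by edgeR. Their median log2 fold change was 0.35. By an adjusted p alone 12 were higher and 3 lower, against 1030 higher and 582 lower of all 11711 genes tested. Without WT replicate 1 or with no filter on low counts the number called fell to 5, and DESeq2 called 11 higher and 0 lower. Of the proteases and their inhibitors 5 of 12 tested were called (2 without WT replicate 1 and 2 without WT replicate 2), among them Mmp9, a gelatinase of myeloid cells. Of the glycoproteins and proteoglycans, 3 of 13 were called, including Fn1, encoding fibronectin, and Thbs1, encoding thrombospondin-1. Fn1 had normalized counts of 44.0 and 40.4 in WT and 129 and 94.8 in the labelled-KO libraries (log2 fold change 1.43, SE 0.152, edgeR adjusted p = 0.0011).

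Among the other basement membrane genes 1 of 5 tested was called, Lamb2, encoding the laminin beta 2 chain, and its adjusted p passed the threshold no longer when either WT library or ICAM-1 KO replicate 1 was left out. Lamb2 was also not called with edgeR's filterByExpr (adjusted p = 0.0537) or with no filter on low counts (edgeR adjusted p = 0.103). Its WT mean normalized count of 1.45 was under 2.5, so it entered the filter through the labelled-KO libraries. Nid2, encoding nidogen-2, had normalized counts of 0.892 and 3.11 in WT and 4.69 and 9.06 in the labelled-KO libraries (log2 fold change 1.82, SE 0.55, edgeR adjusted p = 0.059). Its WT mean of 2.0 was under 2.5 as well. It was called by DESeq2 (adjusted p = 0.017), with replicate numbers as a block (adjusted p = 0.0208) and without ICAM-1 KO replicate 1 (2.22, adjusted p = 0.0055). Of the genes that fold, modify and cross-link collagen 1 of 13 tested was called, Serpinh1, the collagen chaperone HSP47, which was chosen here after its value was seen. It had 3.73 and 7.0 normalized counts in WT and 13.1 and 14.1 in the labelled-KO libraries (edgeR adjusted p = 0.0245). It was not called without WT replicate 1 or with no filter on low counts. The most abundant gene of that list, P4hb, a subunit of the prolyl hydroxylase that every secretory cell also uses for disulfide bonds, differed by -0.09 on the log2 scale (edgeR adjusted p = 0.507). Of 2 further fibrillar or associated collagens tested and of 1 PDGF ligand tested, Pdgfb, none was called.

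Markers of cells other than ILC2s were counted in the same libraries. Of all genes tested, 4.94% were called higher in the labelled-KO libraries, and 28.3% had both of these above both WT libraries. Endothelial markers were higher in the labelled-KO libraries, with 23 of 26 called (15 without WT replicate 1) and summed levels of 492 and 501 CPM in WT and 1329 and 1365 CPM in the labelled-KO libraries. For all 26 the labels did not overlap, among them Pecam1 (CD31), with normalized counts of 48.1 and 54.5 against 103 and 108. Pericyte markers summed to 17.4 and 17.8 CPM in WT and 56.4 and 63.1 in the labelled-KO libraries, with 2 of 3 tested called, Mcam and Itga1, both of which endothelium also expresses. The WT sums of these lists were close to each other, unlike those of the collagens. Single pericyte markers were less alike, as 1 of the 3 tested was at least 2-fold higher in WT replicate 2 and 1 in WT replicate 1.

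Fibroblast markers summed to 214 and 246 CPM in WT and 225 and 194 in the labelled-KO libraries, with 0 of 5 tested called by edgeR (3 were higher and 1 lower at an unadjusted p under 0.05, which 30.2% of all genes tested reached, and 1 was called without WT replicate 2 or without ICAM-1 KO replicate 1). Most of that sum was Npnt, a matrix protein, with normalized counts of 159 and 175 in WT and 116 and 89.9 in the labelled-KO libraries. It was lower in the latter by an adjusted p but not by 2-fold (log2 fold change -0.67, SE 0.125, edgeR adjusted p = 0.0109), and did not pass without WT replicate 2 or with no filter on low counts. The other 22 genes, summed without Npnt after its value was seen, gave 37.5 and 54.9 against 90.1 and 91.1 CPM. The most abundant of them was Foxf1, with normalized counts of 14.8 and 25.2 in WT and 36.9 and 35.1 in the labelled-KO libraries. G0s2 came next, with 11.95 and 9.37 against 20.9 and 16.3. The paper reports Foxf1 as induced in ICAM-1 KO ILC2s, among transcription factors of ILC2s that make the cytokine IL-10. Foxf1 is thus not a marker of fibroblasts alone. Wnt2 and Fgfr4, both markers of alveolar fibroblasts, had 0 counts in every library. Smooth muscle markers gave 69.6 and 65.4 against 91.0 and 92.8 CPM, with 0 of 5 tested called (3 were higher and 0 lower at an unadjusted p under 0.05, and 1 was called without ICAM-1 KO replicate 1). Mesothelial markers gave 3.05 and 3.82 against 14.0 and 14.3 CPM, with none tested and Msln at 0 in every library.

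For the remaining lists too, the share of all genes tested that were called higher was 4.94%. Epithelial markers summed to 578 and 325 CPM in WT and 897 and 1924 in the labelled-KO libraries, with 8 of 15 called. Of the called genes Slc34a2, Sftpb and Lamp3, named after their values were seen, had WT mean normalized counts of 0.68, 0.68 and 0.25. These lie under 2.5, so these genes entered the filter through the labelled-KO libraries. Macrophage markers summed to 331 and 337 against 713 and 1006 CPM, with 9 of 13 called (5 without WT replicate 1 or without ICAM-1 KO replicate 2). T cell markers summed to 304 and 388 against 589 and 730 CPM, with 4 of 7 called higher. At an unadjusted edgeR p under 0.05, which 30.2% of all genes tested reached, 4 T cell markers were higher and 1 lower. Platelet markers gave 13.3 and 13.8 against 23.4 and 24.1 CPM, with 2 of 3 called, neither of them when a WT library or ICAM-1 KO replicate 2 was left out. The platelet calls were also lost with limma, with edgeR's filterByExpr and with no filter on low counts. Red cell markers gave 44.4 and 34.9 against 51.6 and 51.5 CPM, with 0 of 2 called and 0 with an unadjusted p under 0.05. The part of any of these cell types in the members' values was not tested.

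**Figure D4:**
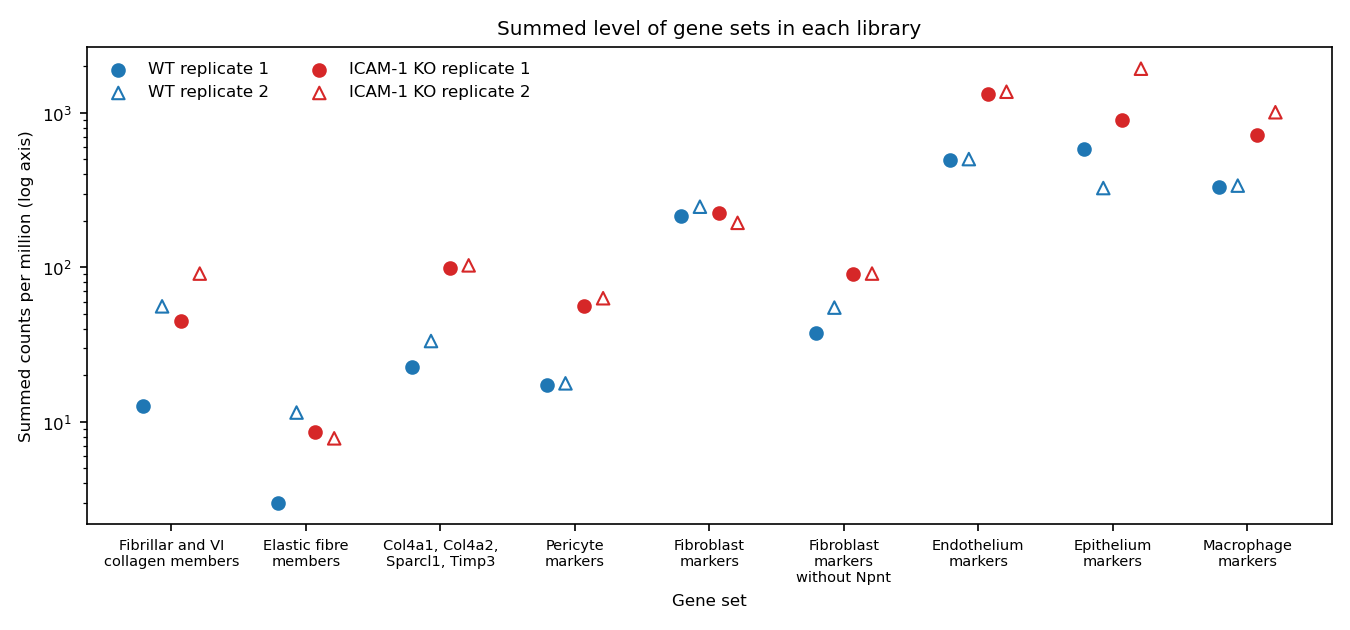
Summed CPM (log axis) of groups of members and of marker lists in each library, WT in blue and ICAM-1 KO in red. The fibrillar and type VI collagens of WT replicate 2 lie above those of ICAM-1 KO replicate 1, while Col4a1, Col4a2, Sparcl1 and Timp3 together, and the endothelial and pericyte markers, show the libraries of each label close together and apart from the other label. Col4a1, Col4a2, Sparcl1 and Timp3 were picked because they were called in these same libraries.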

How the data were processed

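Groups and replicate numbers came from the sample labels, and pool size, sorting and dose from the labels or the study's methods. The authors made cDNA with a low-input SMARTer kit, aligned reads to mm10 (GENCODE M20 annotation) with STAR and deposited an estimated count per gene and library from Partek, which splits reads that match several genes. Whether strand was used is not given in the sources used here, so genes that overlap can share reads. The authors also deposited a normalized signal, in which each value is the count plus 1 times 1 factor per library that equalises upper quartiles.

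The counts were rounded and tested with edgeR 4.0.16 (glmQLFit with legacy set to FALSE, glmQLFTest, upper quartile factors, no covariate) in R 4.3.3, on the 11711 genes whose normalized count averaged 1 or more and summed to 10 or more, limits taken from the study's methods. The study's own test, GSA, was not run here. Standard errors came from the fold change and its F statistic. CPM are counts scaled to a library's total, and lengths came from GENCODE M21. Coordinates are those of the deposited tables, and promoters are from RefSeq (GRCm38.p6), where 23 of 36 members had an entry. Each library held 24796148 to 28782471 counts, and floors and intervals cover counting error only, since the reads carry no molecular identifiers.

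Alternatives were TMM factors, DESeq2 1.42.0, limma 3.58.1 on log2(normalized count + 1), the older glmQLFit method, other filters, replicate numbers as a block, no fold limit and leaving out each library. With 1 library left in a label, its spread was assumed to equal that of the other label. The steps were tested on simulated data. Nothing says that same-numbered libraries share animals or a day, and p-values measure the spread between these pools. Genes named are all members, Icam1, up to 4 of the most abundant genes of each list and markers at 0 in every library, with exceptions stated. The members and lists (fibroblast, pericyte, smooth muscle, mesothelial, endothelial, epithelial, macrophage, platelet, red cell, T cell, ILC2 and other matrix genes) were chosen with earlier results of these data known.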

Additional observations from a re-analysis of the deposited data

How the results depend on the processing

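Over all alternatives the 4 called members remained called and no member was called lower. The number of members called was 4 except with edgeR's filterByExpr (5, with Lamb1), with the replicate numbers as a block (5, with Col3a1) and when single libraries were left out (4 to 7, the most without WT replicate 2). The members' median log2 fold change ran from 0.29 to 1.54 over these omissions. Lamb1 passed filterByExpr through the labelled-KO libraries alone. All genes called, 641 in both directions, became 312 with no filter on low counts, 1612 with no fold limit and 388 to 676 when libraries were left out. Other matrix genes called, 10, became 5 with no filter and 5 to 10 when libraries were left out. Omissions turned the sign of 7 uncalled members, whose log2 fold changes ran from -0.014 to 4.37 (Col1a1), -0.41 to 1.68 (Col1a2), -0.080 to 2.38 (Col6a1), -0.14 to 1.49 (Col6a2), -0.47 to 2.22 (Eln), -0.12 to 1.49 (Mgp) and -0.25 to 0.82 (Pdgfrb), and the cause was not tested. The replicate block gave 5 members called and 668 genes in all. Differences between replicates 1 and 2 correlated at -0.058 between the labels over 11711 genes. A correlation over all genes cannot tell whether same-numbered libraries share a day, which could touch only some genes. With 2 libraries per label, an SD rests on 2 values, and members of a few counts could not be told apart at this depth.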
